A study of Mus musculus with 6 samples.

Results

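Polycomb complexes and ATP-dependent chromatin remodellers set how accessible genes are in embryonic stem (ES) cells, and 55 of 56 listed subunit genes of these complexes could be read here, out of 19938 genes measured. The list took in Polycomb repressive complexes 1 and 2 (PRC1 and PRC2), the SWI/SNF complex of mammals (BAF and its variant PBAF), the ISWI and Chd remodellers and the nucleosome remodelling and deacetylase complex (NuRD). Where several probe sets carried a gene's symbol alone, as in 8 of the 55 genes, the brightest on average stood for it. Cbx6 shares its probe set with another symbol and was not analysed here.

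RNA came from female mouse ES cells of a mixed C57BL/129 background, derived in 2i, a pair of kinase inhibitors, and kept on laminin in N2B27 with 2i and LIF. All 6 samples carried ERT2-Cre, a recombinase that 4-hydroxytamoxifen (4-OHT) activates, and all had received 80 nM 4-OHT for 24 h. In 3 samples both Scc1 alleles were flanked by lox sites (Scc1 lox/lox ERT2-Cre), and 3 controls had wild-type alleles (Scc1 wt/wt ERT2-Cre). Scc1 is the older name of Rad21, the cohesin subunit that closes the ring, so the comparison asks which genes differ after its loss. No sample without 4-OHT was compared, so a difference that existed between the cells of each genotype before treatment and one caused by the loss of Rad21 cannot be told apart. How many independent lines or clones stood behind each genotype is not given in the sources used here.

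PRC2 places the repressive methyl mark on lysine 27 of histone H3 (H3K27me3) through Ezh1 or Ezh2, and PRC1 ubiquitinates histone H2A through Ring1 or Rnf2. In ES cells both complexes sit at CpG-rich starts of silent developmental genes. BAF, ISWI, Chd and NuRD remodellers move or evict nucleosomes with energy from ATP, and NuRD also removes histone acetyl groups. Many subunits come in paralogous versions of which a complex takes 1, so the make-up of a complex depends on which versions a cell makes.

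Rad21 read between 9.99 and 10.05 in wt/wt and between 6.06 and 6.14 in lox/lox arrays (log2 intensity), a 15.2-fold lower level that matches the labels. ES cell markers were well above the array median in both genotypes. All 10 measured markers lay above it. Their log2 changes were all below 0, with a median of -0.30, and 9 had an unadjusted p under 0.05 in limma. In 9 every lox/lox array lay below every wt/wt array. Among all genes above the array median, 26.1% had such a p in either direction, 17.8% were lower without overlap and 5.92% passed as lower. Of the 10 markers, 5 passed as lower in lox/lox cells. Of these Klf4, Fgf4, Sox2 and Nanog passed in all 6 fits that each left out 1 array, and Esrrb in 1 (its highest adjusted p, 0.138, came without lox/lox replicate 2). Their summed linear intensity ran from 26130 to 27650 in wt/wt and from 21600 to 23710 in lox/lox arrays. Of 14 fibroblast markers, which would mark feeder cells, 0 passed the adjusted limma test, though 2 had p under 0.05 before adjustment. Their summed intensity was 3249 to 3663 in wt/wt and 3847 to 4352 in lox/lox arrays, or 395.6 to 483.2 and 417.9 to 484.2 without Vim. Of these 14 markers 6 lay above the array median in each genotype. Among 13 markers of differentiated or extraembryonic cells 1 passed, the trophectoderm and germ cell factor Tfap2c, which was lower. Summed intensities of the 13 were 700.3 to 805.9 in wt/wt and 669.3 to 683.1 in lox/lox arrays. Tfap2c, the brightest of them in wt/wt cells (mean 7.96, against 7.08 in lox/lox), weighs on these sums. In 9 of the 13 the log2 change was above 0 and in 4 below, with a median of 0.05. The part of these shifts in the results on chromatin genes was not tested. In bulk RNA, fewer cells with a transcript and less of it per cell cannot be told apart. Within the genotypes, wt/wt replicate 2 and lox/lox replicate 3 stood apart, with the lowest array weights in limma (0.67 and 0.587). On the main axis of the spread within genotypes, 41.2% of it, these arrays lay on the same side (0.576 and 0.537). The other arrays lay on the opposite side, with wt/wt replicate 1 the farthest (-0.475).

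Most genes of these complexes differed little between the genotypes. Of the 55 genes, 3 rose and 4 fell in lox/lox cells, and 48 did not pass an adjusted p under 0.05 in limma. The 3 higher genes were Smarcd3, Rbbp7 and Smarcd1, and the 4 lower ones were Cbx2, Rnf2, Mta3 and Arid1b. The 7 called genes are 12.7% of those measured, where 6.16% of all genes were called. Since 53 of the 55 genes lay above the array median of 4.90, the closer background is that of the 11419 genes above it, of which 10.0% were called. The share among chromatin genes is near that value. By direction, 5.45% were higher and 7.27% lower, against 2.55% and 3.61% of all genes and 4.11% and 5.92% of genes above the array median. At an unadjusted p under 0.05 the members numbered 17 (5 higher and 12 lower), or 30.9%, where 18.0% of all genes and 26.1% of those above the array median passed. None of the 7 changed by as much as 1.5-fold.

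The log2 change was below 0 in 34 genes and above 0 in 21, with a median of -0.07. Negative changes were also the more frequent over all genes, 10467 against 9462 with a median of -0.008, and over those above the array median, 6106 against 5307 with a median of -0.01. Under quantile normalization, median centring and cyclic loess the members' median was -0.03, -0.09 and -0.05. In 16 genes every lox/lox array lay below every wt/wt array (29.1%), and in 6 every lox/lox array lay above (10.9%). Among genes above the array median these shares were 17.8% and 13.4%, and among all genes 12.7% and 10.1%. The log2 changes of the 55 genes ran from -0.45 in Rybp to 0.57 in Smarcd3.

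**Figure D1:**
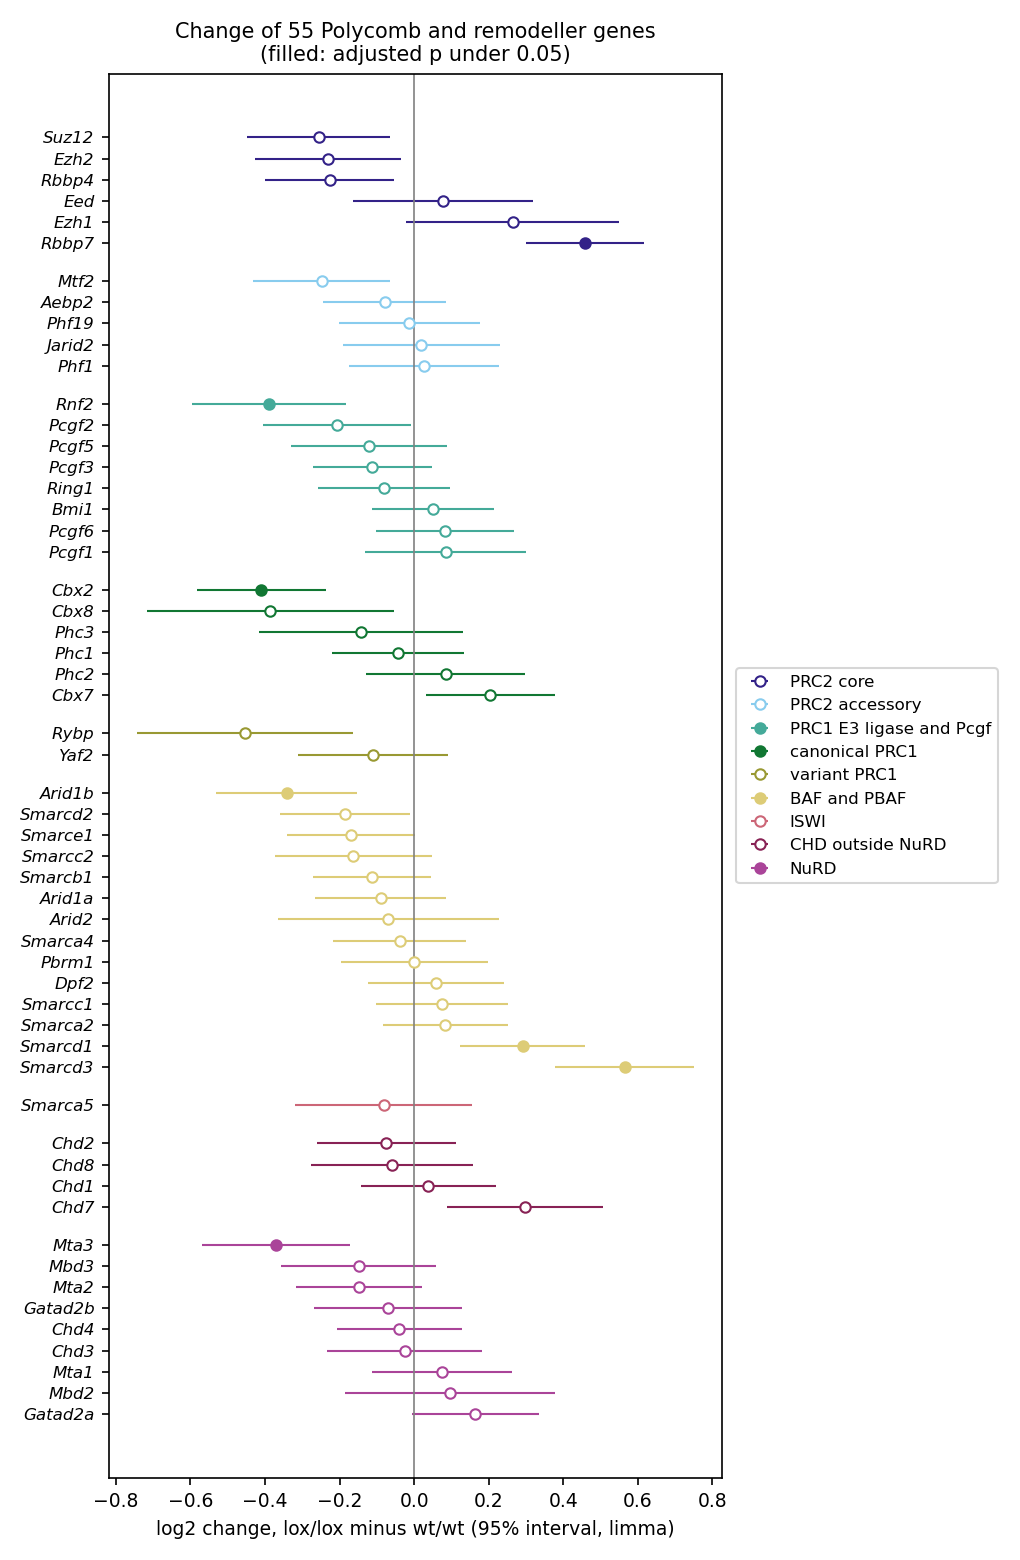
Log2 change (lox/lox minus wt/wt, horizontal axis) of each of the 55 genes with its 95% interval from limma, grouped by complex; filled points passed an adjusted p under 0.05. The 7 filled points are Rbbp7, Rnf2, Cbx2, Arid1b, Smarcd1, Smarcd3 and Mta3, and most open points lie within 0.3 of 0.

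The start regions of 3 of the 7 called genes are given so that a reader can see their base make-up. Smarcd3 and Rbbp7 were called in every fit that left out 1 array, and Rnf2 encodes a catalytic subunit. Each run holds the 250 bases before the annotated start, read 5′ to 3′ on the gene's strand from RefSeq's GRCm38.p6 table, with CG dinucleotides in capitals.
Smarcd3, chr5:24602003-24602252, minus strand: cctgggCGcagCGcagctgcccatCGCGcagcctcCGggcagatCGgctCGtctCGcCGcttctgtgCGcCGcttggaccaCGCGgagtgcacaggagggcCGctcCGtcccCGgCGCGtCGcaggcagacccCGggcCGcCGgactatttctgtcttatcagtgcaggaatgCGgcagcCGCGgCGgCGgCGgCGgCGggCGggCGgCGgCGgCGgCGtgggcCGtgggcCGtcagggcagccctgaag
Rbbp7, chrX:162760122-162760371, plus strand: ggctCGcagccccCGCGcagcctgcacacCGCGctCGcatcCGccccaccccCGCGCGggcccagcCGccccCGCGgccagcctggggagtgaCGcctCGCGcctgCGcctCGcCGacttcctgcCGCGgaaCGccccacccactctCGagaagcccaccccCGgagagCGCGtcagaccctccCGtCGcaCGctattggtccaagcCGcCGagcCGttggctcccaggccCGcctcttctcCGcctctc
Rnf2, chr1:151500992-151501241, minus strand: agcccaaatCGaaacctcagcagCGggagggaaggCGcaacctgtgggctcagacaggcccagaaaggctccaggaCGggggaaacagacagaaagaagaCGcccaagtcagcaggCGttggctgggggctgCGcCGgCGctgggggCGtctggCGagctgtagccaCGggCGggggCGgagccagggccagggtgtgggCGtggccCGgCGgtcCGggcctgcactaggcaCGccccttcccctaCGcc
The run of Smarcd3 holds 38 CG dinucleotides, that of Rbbp7 34 and that of Rnf2 20, where the median over 32851 RefSeq start regions of the same length was 6. At least as many CG as in Smarcd3 stood in 1.88% of these regions, at least as many as in Rbbp7 in 3.53%, and at least as many as in Rnf2 in 17.9%. The table paired 43 of the 55 genes with a start region. Their 55 regions, of called and uncalled genes together, had a median of 21 CG, and the 2 kinds were not compared. Of the called genes, Arid1b (37 CG) and Smarcd1 (29 CG) were also matched, and Cbx2 and Mta3 were not. The letters CACGTG, a sequence that Myc and its partner Max bind and that reads the same on both strands, stood in 0 of the 5 matched called genes, in 7 regions of 7 genes of the whole list, and in 6.02% of all regions. A match or its absence in this window is a description of the letters alone.

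PRC2 genes differed by small amounts and, with 1 exception, none passed. Of the 11 PRC2 genes measured, Rbbp7 rose, and the other 10 did not pass (9.09% called, against 10.0% of genes above the array median). At an unadjusted p under 0.05 in limma there were 5, 4 of them lower (45.5%, against 26.1% of genes above the array median). Without overlap 5 were lower (45.5%, against 17.8%) and 1 was higher (9.09%, against 13.4%). Rbbp7 encodes a histone-binding WD40 protein shared by PRC2, NuRD and other histone complexes. In replicates 1 to 3 its log2 intensity was 11.14, 11.11 and 11.10 for wt/wt and 11.54, 11.59 and 11.60 for lox/lox cells, and values of other genes follow that order. The arrays of each genotype lay close together and far from the other genotype. The difference was 1.37-fold, a log2 change of 0.46 (SE 0.07, 95% interval 0.30 to 0.62, adjusted p = 0.00407 in limma). It was called in all 6 fits that each left out 1 array, with adjusted p of at most 0.0267. A second probe set of Rbbp7 gave a log2 change of 0.41 (adjusted p = 0.0095 in a fit over all probe sets). Rbbp7 lies on the X chromosome, where 370 genes above the array median had a median change of -0.03 and 14.6% were called, 23 higher and 31 lower.

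Rbbp4, the autosomal paralogue of Rbbp7, had a change of the opposite sign. It read 10.83, 11.00 and 10.86 in wt/wt and 10.68, 10.65 and 10.67 in lox/lox arrays, which did not overlap. The log2 change of -0.23 (95% interval -0.40 to -0.05) did not pass in limma (adjusted p = 0.14).

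The catalytic and scaffold genes of PRC2 did not pass either. Ezh2, the main H3K27 methyltransferase of dividing cells, read 9.92, 9.88 and 9.84 in wt/wt and 9.55, 9.59 and 9.81 in lox/lox arrays. The groups did not overlap, but lox/lox replicate 3 was close to the controls, and the log2 change of -0.23 (95% interval -0.43 to -0.04) had an adjusted p of 0.185. Suz12, the subunit that holds the complex together, read 10.15, 10.34 and 10.25 against 9.96, 9.91 and 10.11, without overlap. Its log2 change was -0.26 (95% interval -0.45 to -0.06, adjusted p = 0.132 in limma). Eed, which binds the methyl mark and stimulates the enzyme, read 9.41, 9.78 and 9.48 against 9.68, 9.50 and 9.72, so the genotypes overlapped (adjusted p = 0.805). Ezh1, the less active paralogue of Ezh2, read 6.58, 6.42 and 6.41 against 6.55, 6.60 and 7.06. Its log2 change of 0.26 (adjusted p = 0.326) was 0.10 without lox/lox replicate 3, the array with the high value.

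Accessory subunits steer PRC2 to its sites, and 0 of 5 passed in limma, with 1 at an unadjusted p under 0.05. That 1 gene was Mtf2, a Polycomb-like protein that binds CpG-rich DNA. It read 10.24, 10.34 and 10.23 in wt/wt and 10.01, 9.93 and 10.13 in lox/lox arrays, without overlap (log2 change -0.25, adjusted p = 0.127). Jarid2, Phf1, Phf19 and Aebp2 had log2 changes between -0.08 and 0.03, and Phf19 lay near the array median. Among them Aebp2 alone did not overlap, with lox/lox arrays lower. With eBayes trend and robust options, Suz12, Mtf2 and Rbbp4 passed as lower, at adjusted p of 0.0301, 0.0257 and 0.0178. That setting called 1523 genes in all, against 1228 in the main fit. Ezh2 did not pass under that setting.

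PRC1 had 2 lower genes, one that encodes its enzyme and one that encodes a reader. Of 16 PRC1 genes measured, Rnf2 and Cbx2 fell, 0 rose and 14 did not pass. The share called, 12.5%, is near the 10.0% of genes above the array median. A change below 0 was seen in 11 of the 16, and in 6106 of those 11419 genes. Rnf2, also known as Ring1B, is the main ubiquitin ligase of PRC1 in ES cells. Its log2 intensity was 8.91, 9.05 and 8.85 in wt/wt and 8.66, 8.40 and 8.58 in lox/lox arrays. Every lox/lox value lay below every wt/wt value, and lox/lox replicate 2 was the lowest. Rnf2 was 1.31-fold lower, a log2 change of -0.39 (SE 0.09, 95% interval -0.60 to -0.18, adjusted p = 0.0346 in limma). The call was kept without lox/lox replicate 1 (adjusted p = 0.041) and lost without any other array, with adjusted p of 0.0629, 0.112 and 0.068 without wt/wt replicates 1 to 3 and 0.147 and 0.0718 without lox/lox replicates 2 and 3. Its paralogue Ring1 read 6.30, 6.21 and 6.22 against 6.27, 6.09 and 6.14, with overlap (log2 change -0.08, 95% interval -0.26 to 0.10, adjusted p = 0.697).

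Cbx proteins carry the chromodomain with which canonical PRC1 reads H3K27me3. Cbx2 read 7.57, 7.59 and 7.66 in wt/wt and 7.26, 7.23 and 7.11 in lox/lox arrays. The genotypes were clearly apart. Cbx2 was 1.33-fold lower (log2 change -0.41, SE 0.08, 95% interval -0.58 to -0.24, adjusted p = 0.0115 in limma). Its call was lost without wt/wt replicate 3 (adjusted p = 0.0617). Cbx8 had values of 6.18, 6.04 and 5.99 against 5.81, 5.96 and 5.29, and its log2 change of -0.39 did not pass (adjusted p = 0.196). That change was -0.19 without lox/lox replicate 3, which was far below the other arrays. Cbx7, the Cbx protein known to be prominent in undifferentiated ES cells, had a change of the opposite sign. It read 8.31, 8.32 and 8.28 in wt/wt and 8.47, 8.44 and 8.61 in lox/lox arrays, a log2 change of 0.20 that did not pass (adjusted p = 0.189). The Phc genes, whose proteins polymerise PRC1, had log2 changes from -0.14 in Phc3 to 0.08 in Phc2.

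Pcgf proteins decide which type of PRC1 forms. None of the 6 measured passed in limma, and Pcgf2 alone had an unadjusted p under 0.05 (log2 change -0.21, adjusted p = 0.257). The others ran from -0.12 in Pcgf5 to 0.08 in Pcgf1, and Bmi1, also called Pcgf4, stood at 0.05.

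Rybp and Yaf2 take the place of Cbx proteins in variant PRC1. Rybp had the lowest change of all 55 genes and did not pass. It read 8.47, 8.55 and 8.47 in wt/wt arrays, which agree closely, and 7.76, 8.01 and 8.35 in lox/lox arrays, which do not. The log2 change was -0.45 (SE 0.13, 95% interval -0.74 to -0.16, adjusted p = 0.0764 in limma). Without lox/lox replicate 3 it was -0.61 and passed (adjusted p = 0.0116), and without each other array it did not (adjusted p up to 0.224). A second Rybp probe set read 7.93, 7.41 and 7.49 against 7.29, 7.31 and 7.12. The mean of both probe sets passed in limma (log2 change -0.41, adjusted p = 0.0264). The second was assigned by its symbol alone, and its genome position was not checked. Yaf2 had a log2 change of -0.11 (adjusted p = 0.61).

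**Figure D2:**
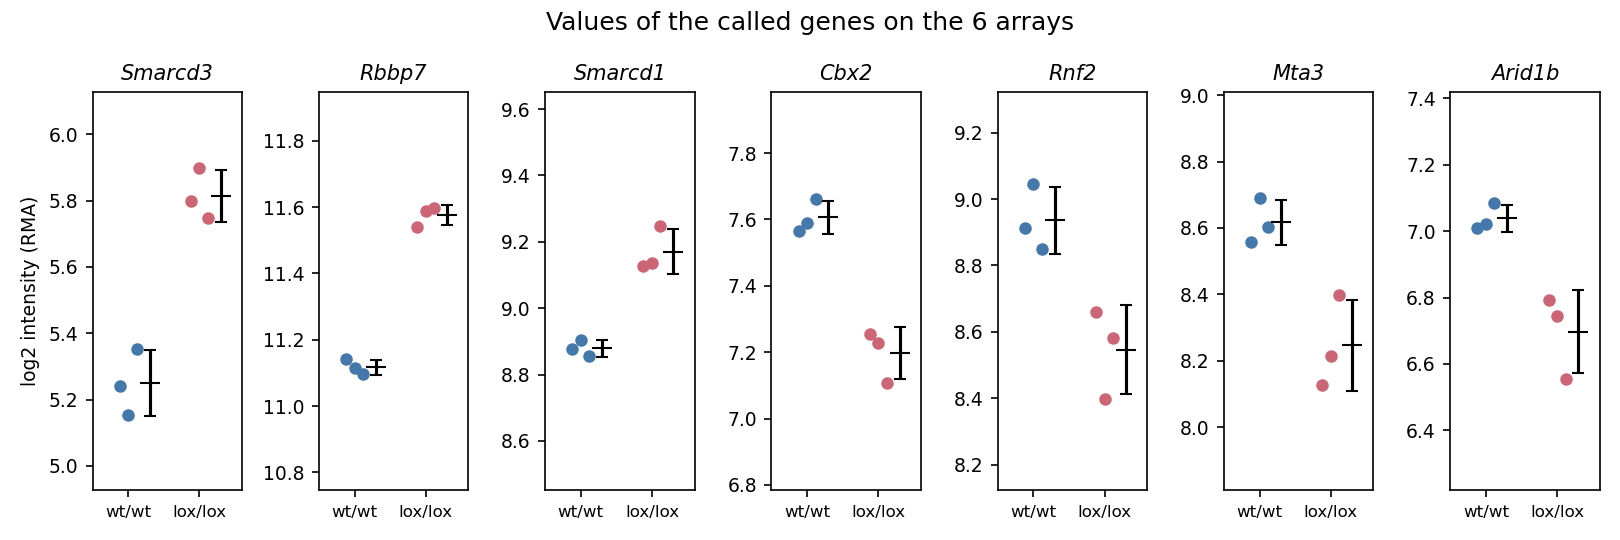
Log2 intensity (vertical axis) of the 7 called genes on each array, with wt/wt in blue and lox/lox in red and the mean ± SD of 3 arrays beside each group; each panel has its own range over the same span. The arrays of the genotypes do not overlap in any panel, and Rbbp7 has the tightest groups relative to its difference.

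Of 14 BAF and PBAF genes, Smarcd3 and Smarcd1 rose, Arid1b fell and 11 did not pass. The 3 called genes are 21.4% of this small group, against 10.0% of genes above the array median. Smarcd3, also called Baf60c, is an accessory subunit known for its part in heart and muscle development. It read 5.24, 5.16 and 5.35 in wt/wt and 5.80, 5.90 and 5.75 in lox/lox arrays. All values lay a little above the array median, and the gap between genotypes was larger than the spread in either. Smarcd3 was 1.48-fold higher, the largest change among the 55 genes (log2 change 0.57, SE 0.08, 95% interval 0.38 to 0.75, adjusted p = 0.00305 in limma), and it was called in all 6 fits without 1 array (adjusted p of at most 0.0222).

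The paralogues of Smarcd3 gave different values. Smarcd1, or Baf60a, which is the version ES cell BAF is known to contain, read 8.88, 8.91 and 8.86 in wt/wt and 9.13, 9.14 and 9.25 in lox/lox arrays. The groups were apart, but the change was small, 1.22-fold (log2 change 0.29, SE 0.07, 95% interval 0.12 to 0.46, adjusted p = 0.0487 in limma). It lost its call without any 1 of the arrays (adjusted p from 0.0953 without wt/wt replicate 2 to 0.165 without wt/wt replicate 3) and with median centring (adjusted p = 0.111). Smarcd1 lies on chromosome 15, as does Rad21, where 468 genes above the array median had a median change of 0.01 and 8.33% were called. The other chromosome 15 genes of the list, Cbx7, Yaf2 and Arid2, did not pass. Smarcd2 read 7.18, 7.33 and 7.16 against 7.00, 7.05 and 7.07, with a log2 change of -0.18 that did not pass (adjusted p = 0.246).

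Arid1a and Arid1b are alternative DNA-binding subunits of BAF. Arid1b read 7.01, 7.02 and 7.08 in wt/wt and 6.79, 6.74 and 6.55 in lox/lox arrays, with no overlap and the lowest value in lox/lox replicate 3. It was 1.27-fold lower (log2 change -0.34, SE 0.09, 95% interval -0.53 to -0.15, adjusted p = 0.0419 in limma). The call was lost without any 1 of the arrays, with adjusted p from 0.0535 without lox/lox replicate 1 to 0.156 without wt/wt replicate 3, and also with quantile normalization (adjusted p = 0.0526) or cyclic loess (adjusted p = 0.0519). Arid1a had a log2 change of -0.09 (adjusted p = 0.646). The PBAF genes Arid2 and Pbrm1 had changes of -0.07 and 0.001.

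The 2 alternative ATPases of BAF are Smarca4 (Brg1), the one ES cells are known to use, and Smarca2 (Brm). Smarca4 read 8.87, 8.91 and 8.99 in wt/wt and 8.84, 8.82 and 8.99 in lox/lox arrays. The genotypes overlapped, and the 95% interval of the log2 change ran from -0.22 to 0.14 (adjusted p = 0.88 in limma). Smarca2 read 4.07, 4.03 and 3.98 against 4.07, 4.18 and 4.09, below the array median, where a change would be understated. The core subunits Smarcb1, Smarcc1, Smarcc2 and Smarce1 had log2 changes between -0.17 and 0.07 and did not pass. The 3 probe sets of Smarce1 gave changes of -0.17, -0.14 and -0.16. They were assigned by symbol alone, their genome positions were not checked, and they are not replicates of each other.

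ISWI and Chd remodellers slide and space nucleosomes, and none of the 5 measured outside NuRD passed in limma, with 1 at an unadjusted p under 0.05. Smarca5 (Snf2h), the ISWI ATPase, read 9.77, 10.03 and 9.81 in wt/wt and 9.85, 9.60 and 9.92 in lox/lox arrays, with overlap (log2 change -0.08, 95% interval -0.32 to 0.16). Chd1, known to keep ES cell chromatin open, read 8.55, 8.61 and 8.57 against 8.53, 8.58 and 8.74, also with overlap (log2 change 0.04, 95% interval -0.14 to 0.22). Chd2 and Chd8 had log2 changes of -0.08 and -0.06.

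Chd7, a remodeller of enhancers that is mutated in CHARGE syndrome, was read by 30 probe sets. The one with the highest mean read 7.20, 7.50 and 7.41 in wt/wt and 7.62, 7.76 and 7.63 in lox/lox arrays. These did not overlap, yet the log2 change of 0.30 (SE 0.09) did not pass (adjusted p = 0.106 in limma). In all 30 probe sets the change was above 0, from 0.13 to 0.66 with a median of 0.33. In 20 of them every lox/lox array lay above every wt/wt array, as in 10.1% of all genes and 13.4% of those above the array median. An unadjusted p under 0.05 in limma was reached by 24, where 18.0% and 26.1% of these genes had one. In a fit over all probe sets 7 passed, where 5.90% of probe sets were called. The mean over the 30 probe sets was 5.83, 5.93 and 5.88 in wt/wt and 6.10, 6.24 and 6.31 in lox/lox arrays. With that mean as the gene's value Chd7 passed (log2 change 0.34, SE 0.08, adjusted p = 0.0382), in a fit where 6.15% of all genes were called. Probe sets of 1 gene share the same RNA and are not replicates of each other.

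**Figure D3:**
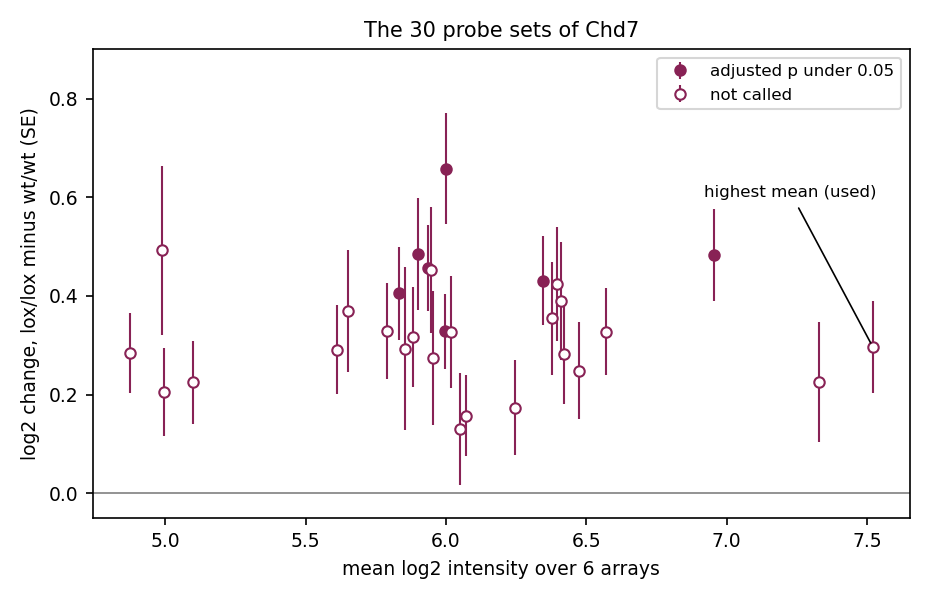
Log2 change (vertical axis, with its SE) of each of the 30 Chd7 probe sets against its mean log2 intensity over the 6 arrays (horizontal axis); filled points passed an adjusted p under 0.05 in a fit over all probe sets. All points lie above 0, and the probe set with the highest mean, which stood for the gene, is among those that did not pass.

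NuRD pairs a Chd3 or Chd4 ATPase with histone deacetylases. Mta3 was the 1 of its 9 genes outside the Rbbp pair that passed (11.1%, against 10.0% of genes above the array median). Mta3 is a metastasis-associated subunit that bridges the deacetylases to the complex. It read 8.56, 8.69 and 8.60 in wt/wt and 8.13, 8.22 and 8.40 in lox/lox arrays. The genotypes did not overlap, and lox/lox replicate 3 was the nearest to the controls. Mta3 was 1.29-fold lower (log2 change -0.37, SE 0.09, 95% interval -0.57 to -0.17, adjusted p = 0.0371 in limma). Its call was kept without lox/lox replicate 3 (adjusted p = 0.0224) and lost without each other array, with adjusted p of 0.0517, 0.114 and 0.112 without wt/wt replicates 1 to 3 and 0.133 and 0.142 without lox/lox replicates 1 and 2. A second Mta3 probe set, below the array median at a mean of 3.90, had a log2 change of -0.08, and the mean of both did not pass (adjusted p = 0.124).

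The other Mta genes did not pass, with log2 changes of 0.08 for Mta1 and -0.15 for Mta2. Chd4, the main NuRD ATPase of ES cells, read 9.81, 9.88 and 9.91 in wt/wt and 9.83, 9.77 and 9.89 in lox/lox arrays, with a 95% interval of the log2 change from -0.21 to 0.13. Mbd3, which NuRD needs for its assembly in ES cells, read 9.58, 9.46 and 9.68 against 9.57, 9.37 and 9.33, with overlap (log2 change -0.15, adjusted p = 0.478). Mbd2, its alternative, and the scaffold genes Gatad2a and Gatad2b had log2 changes of 0.10, 0.16 and -0.07.

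**Figure D4:**
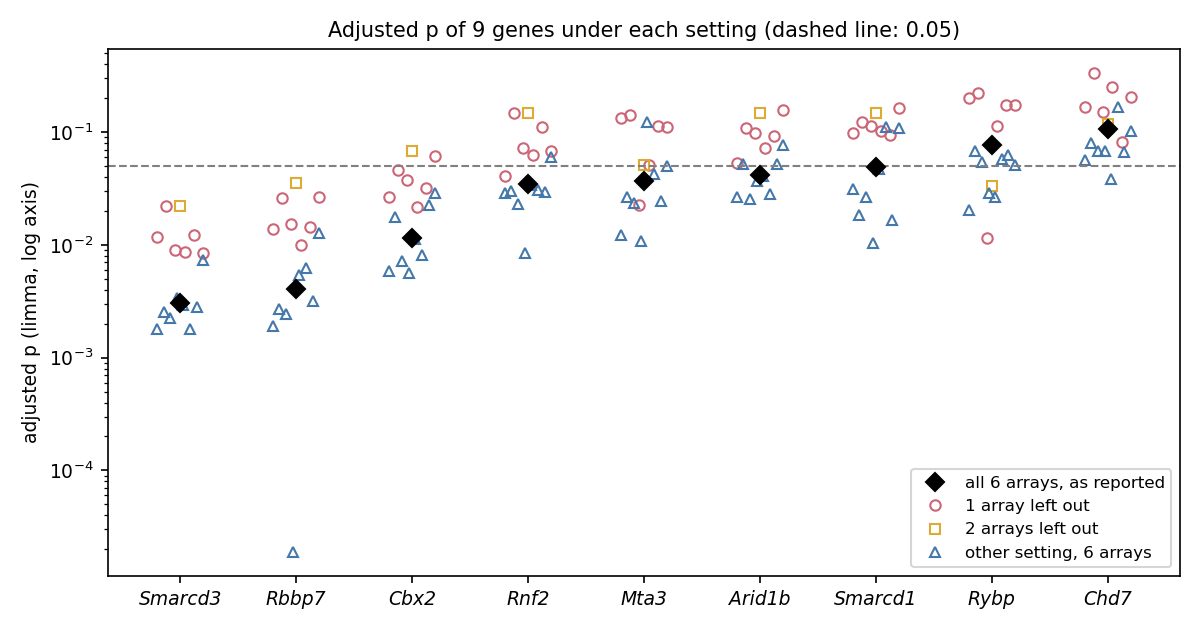
Adjusted p from limma (vertical log axis) of the 7 called genes and of Rybp and Chd7 with all 6 arrays as reported, without 1 array, without the 2 arrays that stood apart, and under other settings; the dashed line is 0.05. Points of Smarcd3 and Rbbp7 all lie below the line, and those of the other 7 genes lie on both sides of it.

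A further list held partner subunits and related remodellers. Of 55 measured, 4 rose, 2 fell and 49 did not pass, with a median log2 change of 0.02. The share called, 10.9%, is near the 10.0% of all genes above the array median, where 52 of these 55 lay. Chd9, a Chd remodeller, rose by 0.46 (adjusted p = 0.00448 in limma) and was called in all 6 fits without 1 array. Smarca1, the second ISWI ATPase, rose by 0.47 but lay below the array median (adjusted p = 0.0252), while Zmynd8, a reader of histone marks, and Bcl11a, a zinc finger factor that associates with BAF, rose by 0.42 and 0.40 (adjusted p = 0.0364 and 0.0411). Smarcad1, a remodeller of silent chromatin, fell by 0.42 and Baz1a, an ISWI partner, fell by 0.35 (adjusted p = 0.0241 and 0.0357). Apart from Chd9, each of them passed in only 1 or 2 of the 6 fits that left out an array. The highest adjusted p were 0.116 for Smarca1 and 0.112 for Smarcad1 without lox/lox replicate 2, 0.113 for Zmynd8 without lox/lox replicate 3, 0.139 for Bcl11a without lox/lox replicate 1 and 0.138 for Baz1a without wt/wt replicate 3.

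Another list held textbook targets of H3K27me3 in ES cells, among them Hox genes and lineage factors. Whether they carried the mark in the cells used here was not measured. Of 88 measured, 1 rose, 5 fell and 82 did not pass, with a median log2 change of 0.003, and 6.82% were called. In this list 48 genes lay at or below the array median, so the 6.16% of all genes is the nearer background. The higher gene was the imprinted cell cycle inhibitor Cdkn1c, with a log2 change of 1.04 (adjusted p = 0.000751 in limma). The lower genes were the homeobox genes Meis2, Gsc and Hoxc4 and the neural factors Olig2 and Olig1, with log2 changes of -1.76, -0.66, -0.47, -0.51 and -0.33 and adjusted p of at most 0.0387. Hoxc4 and Olig2 lay below the array median in both genotypes by their means, at 4.84 and 4.38 and at 4.49 and 3.98 in wt/wt and lox/lox cells, and 3 targets were lower when dim genes were left out. The calls of Meis2 and Cdkn1c held in all 6 fits without 1 array. Without lox/lox replicate 2 the others had adjusted p of 0.0661 for Gsc, 0.113 for Hoxc4, 0.0744 for Olig2 and 0.116 for Olig1. Gsc was also lost without wt/wt replicate 3, Olig2 without wt/wt replicate 2, Hoxc4 without replicate 3 of either genotype, and Olig1 without any 1 array.

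**Figure D5:**
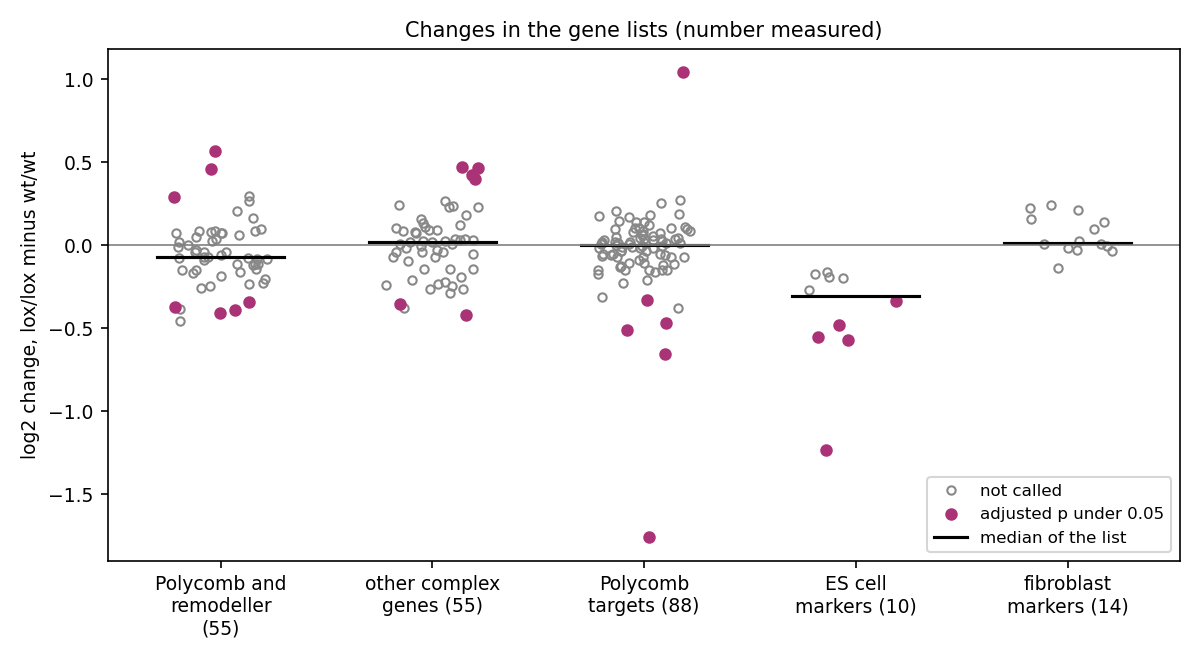
Log2 change (vertical axis) of each measured gene of 5 lists, with filled points for an adjusted p under 0.05 and a bar at each list's median. The Polycomb and remodeller genes, their partner genes and the Polycomb targets centre near 0, while all 10 ES cell markers lie below 0.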

How the data were processed

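The deposited table holds log2 intensities of 35556 probe sets on 6 Affymetrix Mouse Gene 1.0 ST arrays, which the authors made with RMA and affy per the submitters' processing notes. Their versions, options and genome build (not given in the sources used here) stay unknown. The dose of 4-OHT is in nM in the sample labels, as printed, and in mM in the design text. RMA hides an overall change of RNA per cell and understates changes of genes near background.

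Symbols came from the platform annotation. It gave 21789 probe sets 1 symbol, 1621 several and 12146 none, and the probe set with the highest mean stood for each of 19938 genes. The test was that of limma 3.58.1 under R 4.3.3 (lox/lox minus wt/wt, lmFit, eBayes, 6.14 prior and 4 residual degrees of freedom), two-sided, with Benjamini-Hochberg adjustment over all genes. Precision is limited by 3 arrays per genotype, and p-values measure the spread between them. On simulated data for this comparison, with 200 changed genes among 19938, 56% of log2 changes of 0.5 and 100% of those of 1 were recovered. Of the simulated calls 3.7% were unchanged genes. Simulated noise was independent between genes, so shifts that many genes share on an array were not in it. Apart from Smarcd3, the called members changed by less than 0.5, a size not simulated, so these shares do not carry over to them.

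Members and lists were chosen with earlier results of these data known. Named with all 6 values were the called members and 12 enzyme or scaffold genes of a fixed rule. Rybp, Chd7, Rbbp4, Mtf2, Cbx7, Cbx8 and Smarcd2 were given theirs after their values were seen. Of the partner and target lists up to 4 called genes in each direction were named, and Olig1 after its value was seen. The called ES cell and differentiation markers were also named after their values were seen. Alternatives were other normalizations, filters, probe set rules, variance models, thresholds, a replicate block and left-out arrays.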

Additional observations from a re-analysis of the deposited data

How the results depend on the processing

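With each array left out in turn, 2 members were higher in every fit (Smarcd3 and Rbbp7) and 0 to 3 were lower, with 0 without wt/wt replicate 3. Over all genes 626 to 1132 were called, against 1228 with 6 arrays. Partner genes had 1 to 3 higher and 0 to 3 lower, and Polycomb targets had 1 higher and 1 to 5 lower. Titles share replicate numbers, but deviations from the group means correlated at 0.10, -0.23 and -0.10 in the 3 pairs and 1 of 6 arrays was closest to its own number, so the numbers were not taken to pair the arrays. With the replicate block 1 member was lower (Cbx2) and 2 were higher, with 1086 genes called in all. Leaving out both arrays that stood apart, chosen after seeing the data, gave 1 lower member (Rybp), 697 genes in all, 1 higher and 0 lower partner genes, and 1 lower target. With eBayes trend and robust options 8 members were lower, with 1523 genes called in all. Array weights gave 2 higher and 5 lower partner genes, with 1717 genes called in all. Without dim genes 3 targets were lower, with 1424 genes called in all. At an adjusted p under 0.01 in limma, 553 genes were called. Lower members numbered 0, against 4 at an adjusted and 12 at an unadjusted p under 0.05. Partner genes had 1 higher, against 4 at an adjusted p under 0.05. They had 0 lower, against 2 at an adjusted and 10 at an unadjusted p under 0.05. Of the targets 1 was lower, against 5 at an adjusted p under 0.05. With a change of at least 1.5-fold as well as an adjusted p under 0.05, 451 genes were called. Among them were 0 members and 0 partner genes in either direction, and 2 lower targets. Without the fold threshold 7 members, 6 partner genes and 5 lower targets were called. At an unadjusted p under 0.05 in limma, without a fold threshold, members and partner genes numbered 17 each. The causes were not tested. No called member changed sign under any alternative run. Among the uncalled genes of the fixed rule, Chd1 (under 2 alternatives), Chd4, Eed and Smarca5 (under 1 each) did, without passing. Signals near background limit what Smarca2 and Phf19 can show.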
